A study of Mus musculus with 4 samples.

Results

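The genes described are 10 components of the circadian clock and its output: Arntl, Clock, Per1, Per2, Nr1d1, Nr1d2, Dbp, Tef, Hlf and Nfil3. They were taken by symbol from a table of RPKM values (read numbers scaled to gene length and sequencing depth) for 22083 genes, and all 10 had a row. The table holds 4 libraries of group 2 innate lymphoid cells (ILC2s), tissue-resident lymphocytes without antigen receptors that secrete type 2 cytokines. One tissue of origin was small intestinal lamina propria (SI-ILC2s, 2 libraries), and the other was the white fat of the mesentery (WAT-ILC2s, 2 libraries). All mice were wild-type C57BL/6 aged 9 weeks, with no treatment named. The sources used here do not give the hour at which tissue was taken, the number of mice behind a library or the sort markers.

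The mammalian clock is a loop of transcription factors. ARNTL (also called BMAL1) and CLOCK form a dimer that binds E-boxes and drives Per, Cry, Nr1d and Dbp genes, and PER and CRY proteins then repress the dimer. A linked loop acts on ROR elements, where ROR receptors activate and the REV-ERB receptors encoded by Nr1d1 and Nr1d2 repress genes such as Arntl and Nfil3. Output passes through D-boxes, which the related PAR bZIP activators DBP, TEF and HLF share with the bZIP repressor NFIL3. NFIL3 is also known as a factor required for the development of innate lymphoid cells in mice.

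Gene levels rested on depths of about 75700000 and 59600000 reads for SI-ILC2 replicates 1 and 2 and about 55300000 and 65400000 reads for WAT-ILC2 replicates 1 and 2, as estimated from the value steps of single-exon genes. Gata3, the factor that defines the lineage, was at 354 to 377 RPKM in SI-ILC2s, against 338 to 397 RPKM in WAT-ILC2s, but other ILC2 markers differed: of 9, Il17rb, Il13 and Rora were called higher in SI-ILC2s and Il1rl1 and Il7r lower. Il17rb, an IL-25 receptor subunit gene, was at 141 to 164 RPKM in SI-ILC2s, against 10.3 to 14.3 RPKM in WAT-ILC2s, and Il1rl1, the IL-33 receptor gene, at 14.3 to 15.4 RPKM in SI-ILC2s, against 63.4 to 65.7 RPKM in WAT-ILC2s. Summed markers of ILC3s were at 3.08 to 4.93 RPKM in SI-ILC2s, against 0.122 to 0.264 RPKM in WAT-ILC2s, and those of B and plasma cells at 18.9 to 24.6 RPKM in SI-ILC2s, against 2.52 to 3.08 RPKM in WAT-ILC2s. Red cell markers summed to 9.05 to 27.4 RPKM in SI-ILC2s, against 61.2 to 94.8 RPKM in WAT-ILC2s, and fibroblast markers to 0.462 to 0.532 RPKM in SI-ILC2s, against 4.48 to 9.88 RPKM in WAT-ILC2s. T cell markers summed to 6.77 to 8.49 RPKM in SI-ILC2s, against 12.4 to 23.2 RPKM in WAT-ILC2s. Macrophage and dendritic cell markers summed to 3.14 to 4.44 RPKM in SI-ILC2s, against 7.54 to 9.90 RPKM in WAT-ILC2s, and adipocyte markers to 0.348 to 0.734 RPKM in SI-ILC2s, against 4.26 to 4.97 RPKM in WAT-ILC2s. Of 3 ILC3 and 5 B and plasma cell genes, 2 each were tested, and all were called higher in SI-ILC2s. Called lower were 4 of 4 tested red cell, 2 of 2 fibroblast (6 listed) and 1 of 2 T cell genes (Cd3g, 6 listed). So were 1 of 3 tested macrophage and dendritic cell genes (Lyz2, 6 listed) and the 1 tested adipocyte gene (Fabp4, 6 listed). Among all tested genes, 17.9% were called higher and 29.6% lower. Testing required at least 1 RPKM in at least 2 libraries. Il22, Il17f and Igj met this only through SI-ILC2s, and Col3a1, Dcn, Lyz2, Fabp4, Alas2 and the mast cell gene Cpa3 only through WAT-ILC2s. The direction of their calls was thus fixed. The B and plasma cell genes called higher were Cd79b, at 13.1 to 17.3 RPKM in SI-ILC2s, against 2.36 to 2.59 RPKM in WAT-ILC2s, and Igj, at 5.51 to 7.02 RPKM in SI-ILC2s, against 0 to 0.0129 RPKM in WAT-ILC2s. Ms4a1, Cd79a, Cd3d, Cd4 and Cd8a were below 1 RPKM in every library, whereas the T cell genes Cd3g (4.94 to 7.07 RPKM in SI-ILC2s, against 10.8 to 21.2 RPKM in WAT-ILC2s) and Cd3e (1.19 to 1.48 RPKM in SI-ILC2s, against 1.39 to 1.81 RPKM in WAT-ILC2s) were not. Intestinal epithelium markers summed to 5.33 to 11.2 RPKM in SI-ILC2s, against 8.42 to 8.98 RPKM in WAT-ILC2s, with Epcam called lower. Krt8 was at 0.240 and 4.32 RPKM in SI-ILC2 replicates 1 and 2. Endothelial markers summed to 4.46 to 5.66 RPKM in SI-ILC2s, against 4.48 to 5.99 RPKM in WAT-ILC2s. Of these, Pecam1 was called higher, whereas Cdh5, Kdr, Emcn and Tek were higher in WAT-ILC2s. Mesothelial markers summed to 0.440 to 0.563 RPKM in SI-ILC2s, against 0.605 to 2.70 RPKM in WAT-ILC2s. Those of NK cells and ILC1s summed to 1.54 to 1.56 RPKM in SI-ILC2s, against 0.575 to 0.791 RPKM in WAT-ILC2s. Neither list had a tested gene. Granulocyte and mast cell markers summed to 0.715 to 0.977 RPKM in SI-ILC2s, against 1.57 to 1.79 RPKM in WAT-ILC2s. Their 1 tested gene (Cpa3, 6 listed) was called lower. The part of these cells in the results below was not tested, and in bulk samples fewer cells of a type and less RNA per cell cannot be told apart.

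Of the 10 genes, 4 were higher in SI-ILC2s (Hlf, Nfil3, Nr1d2 and Arntl), 3 were lower (Tef, Dbp and Clock), 2 did not pass the test (Nr1d1 and Per1), and Per2 was too low to be tested. The output factors split: Hlf and Nfil3 were 3.79 and 2.75 times as high in SI-ILC2s as in WAT-ILC2s by mean RPKM, whereas Dbp and Tef were at 0.625 and 0.487 times the WAT-ILC2 level. The test was limma on log2(RPKM + 1), SI-ILC2 minus WAT-ILC2, over 8230 genes with at least 1 RPKM in at least 2 libraries, with a Benjamini-Hochberg adjusted p below 0.05 as the threshold. Adding 1 before the logarithm understates the change of low genes. Of the genes called lower, Clock met the filter of 1 RPKM only through the WAT-ILC2 libraries, so its direction as a tested gene was fixed. Among all tested genes, 17.9% were called higher and 29.6% lower, 47.5% in all, which is the background for the 7 calls among 9 tested genes. Without SI-ILC2 replicate 1 the counts were 3 higher and 0 lower (1 lower at an unadjusted limma p under 0.05), without SI-ILC2 replicate 2 they were 2 and 1, and without WAT-ILC2 replicate 2 they were 3 and 1. They were 4 and 1 with median-of-ratios scaling or quantile normalization and 2 and 3 with columns rescaled to equal sums. Fewer of all tested genes were also called, higher and lower, when SI-ILC2 replicate 1, SI-ILC2 replicate 2 or WAT-ILC2 replicate 2 was left out. The median log2 change was 0.28 for the 9 genes and -0.15 for all tested genes. Since no label states that replicates were separate mice, all p-values reflect the spread between these libraries alone, which may be technical.

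**Figure D1:**
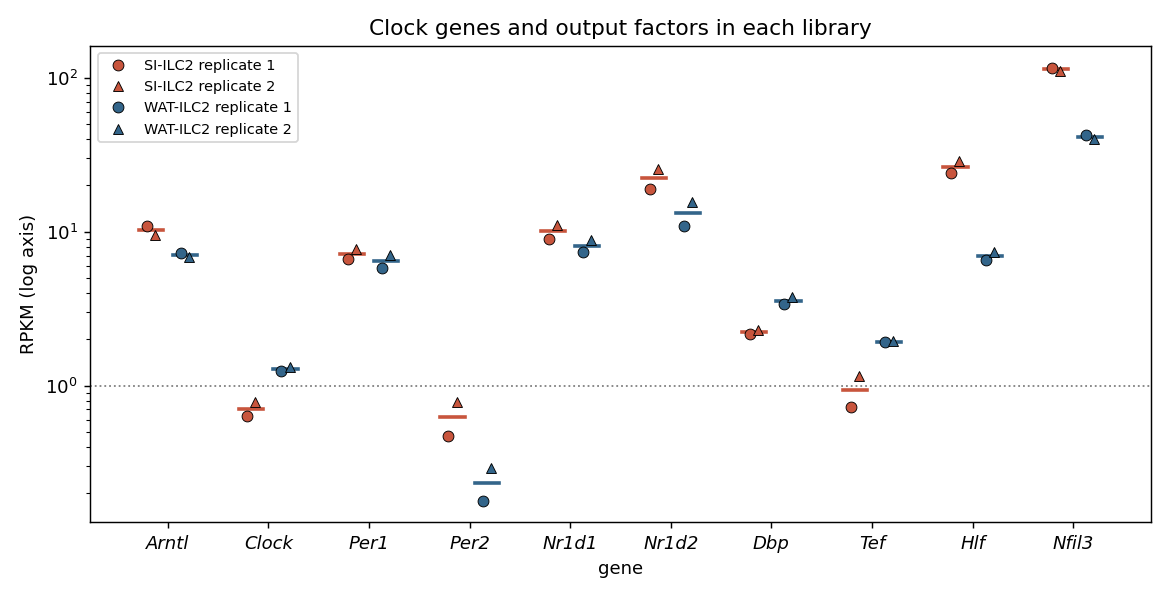
RPKM (log axis) of each of the 10 genes in every library, with SI-ILC2s left of WAT-ILC2s, circles for replicate 1, triangles for replicate 2 and bars at the mean of 2 libraries; the dotted line is the filter value of 1 RPKM. Hlf and Nfil3 show the widest gaps between tissues, and only Per1 has overlapping tissues. Overlap was also the rarer state over all genes, at 2000 of 8230 tested genes.

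Promoter sequences are shown for 4 of the called genes because their windows hold one of the searched words. RefSeq (GRCm38.p6) windows of 300 bases, 250 before to 50 after a start, were found for 9 of the 10 genes, all but Per2, in 14 windows. Both strands were searched for the E-box CACGTG, the E-prime box CACGTT, the D-boxes TTATGTAA and TTACGTAA, the ROR element words TAGGTCA and TGGGTCA, and the cAMP response element TGACGTCA, none of which contains another. Matches are in capitals, and each sequence runs 5′ to 3′ on the gene's strand.
Arntl, chr7:113207261-113207560, plus strand: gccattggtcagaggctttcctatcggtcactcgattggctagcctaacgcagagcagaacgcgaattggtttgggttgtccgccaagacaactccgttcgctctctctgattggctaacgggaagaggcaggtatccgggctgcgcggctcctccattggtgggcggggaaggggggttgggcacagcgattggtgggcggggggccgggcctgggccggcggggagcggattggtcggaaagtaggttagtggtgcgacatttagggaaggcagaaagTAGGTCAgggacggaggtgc
Nfil3, chr13:52980990-52981289, minus strand: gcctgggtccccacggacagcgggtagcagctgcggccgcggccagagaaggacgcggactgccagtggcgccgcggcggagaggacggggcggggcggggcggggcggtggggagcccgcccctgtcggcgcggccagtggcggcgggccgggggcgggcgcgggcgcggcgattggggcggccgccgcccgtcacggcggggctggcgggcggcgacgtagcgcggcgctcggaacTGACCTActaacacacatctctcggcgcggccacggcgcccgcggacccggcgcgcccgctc
Hlf, chr11:90390868-90391167, minus strand: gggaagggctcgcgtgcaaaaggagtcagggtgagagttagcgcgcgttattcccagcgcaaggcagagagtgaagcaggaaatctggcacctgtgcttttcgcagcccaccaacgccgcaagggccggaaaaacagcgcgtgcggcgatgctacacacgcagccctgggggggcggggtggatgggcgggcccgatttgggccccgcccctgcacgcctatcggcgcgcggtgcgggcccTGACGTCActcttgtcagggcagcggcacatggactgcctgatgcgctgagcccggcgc
Tef, chr15:81811164-81811463, plus strand: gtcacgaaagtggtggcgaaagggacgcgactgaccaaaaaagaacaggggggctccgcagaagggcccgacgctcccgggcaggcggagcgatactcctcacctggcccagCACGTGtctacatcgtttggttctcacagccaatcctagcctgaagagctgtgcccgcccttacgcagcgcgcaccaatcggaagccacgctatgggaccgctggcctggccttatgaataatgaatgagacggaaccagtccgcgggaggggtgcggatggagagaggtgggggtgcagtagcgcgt
The ROR element word began at base 31 after the start in 1 of 2 Arntl windows and at base -12 in Nfil3, where it reads on the opposite strand. Over all genes with a window, 7.35% held such a word. Hlf held the cAMP response element at base -9, as did 2.03% of genes, and both Tef windows held an E-box (bases -127 and -138), as did 8.09% of genes. An E-box also stood at base -166 in 1 of 2 Per1 windows and an E-prime box, held by 5.44% of genes, at base -28 in Nr1d1. No window of Dbp, Clock or Nr1d2 held any of these words. No D-box word was found in the 14 windows, and only 1.06% of the windows of all genes held one. A match is only a match of letters in these windows and was not tested as a site.

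Among the activators, Arntl (chromosome 7, 113207465 to 113314126) had 10.9 and 9.57 RPKM in SI-ILC2s, against 7.26 and 6.88 RPKM in WAT-ILC2s. Each SI-ILC2 library was higher than each WAT-ILC2 library, as was true for 29.8% of tested genes. The difference was 0.47 ± 0.14 on the log2 scale (SE, limma adjusted p = 0.034). Clock (chromosome 5, 76209868 to 76304792), which encodes the partner of ARNTL, had 0.637 and 0.778 RPKM in SI-ILC2s, against 1.24 and 1.31 RPKM in WAT-ILC2s. Here both WAT-ILC2 libraries were the higher ones, as for 45.9% of tested genes, and the change was -0.42 ± 0.12 (SE, limma adjusted p = 0.028). Clock passed the filter only through the WAT-ILC2 libraries, so as a tested gene it could only be lower in SI-ILC2s. The partners went in opposite directions, though that of Clock was fixed by its entry into the test. Arntl RPKM over Clock RPKM was 17.1 and 12.3 in SI-ILC2s, against 5.85 and 5.24 in WAT-ILC2s. An exact two-sided permutation test of such a ratio over 2 and 2 libraries cannot go below p = 0.333. Both calls were lost without SI-ILC2 replicate 1 (adjusted p = 0.223 for Arntl and 0.14 for Clock), SI-ILC2 replicate 2 (0.087 and 0.058) or WAT-ILC2 replicate 2 (0.087 and 0.089), and over 14 alternatives the adjusted p ranged from 1.7e-04 to 0.223 for Arntl and from 0.0037 to 0.157 for Clock. They were also lost with no filter on low values (0.068 for Arntl and 0.106 for Clock), that of Arntl with equal column sums (0.091), and that of Clock with median-of-ratios scaling (0.058) or quantile normalization (0.157). The lowest adjusted p here, and in each range over 14 alternatives below, came from a fit with the replicate number as a block. No label states that the libraries were paired.

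The period genes encode the repressors of the dimer. Per1 (chromosome 11, 69095217 to 69109960) had 6.64 and 7.70 RPKM in SI-ILC2s, against 5.78 and 7.03 RPKM in WAT-ILC2s, so the tissues overlapped. Its change of 0.14 had a 95% interval of -0.24 to 0.53 (limma adjusted p = 0.487). Per2 (chromosome 1, 91415982 to 91459324) was listed at 0.471 and 0.782 RPKM in SI-ILC2s, against 0.179 and 0.290 RPKM in WAT-ILC2s. Both SI-ILC2 libraries were higher, and the mean was 2.67 times that of WAT-ILC2s. These values rest on about 209 and 273 reads in SI-ILC2s and 58 and 111 reads in WAT-ILC2s, the lowest of the 10 genes. Tested among all 21851 genes with any value above 0, Per2 had a change of 0.39 and a limma adjusted p of 0.101.

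The REV-ERB genes encode nuclear receptors that repress through ROR elements. Nr1d2 (chromosome 14, 18204054 to 18239127) had 18.9 and 25.5 RPKM in SI-ILC2s, against 10.9 and 15.6 RPKM in WAT-ILC2s. The tissues did not overlap, but the libraries within each were further apart than for Arntl, and the change was 0.71 ± 0.22 (SE, limma adjusted p = 0.038). The call was lost without SI-ILC2 replicate 2 (adjusted p = 0.176) or WAT-ILC2 replicate 1 (0.063), with equal column sums (0.096) or with no filter (0.073), and the adjusted p over 14 alternatives ranged from 2.0e-08 to 0.176. Nr1d1 (chromosome 11, 98767932 to 98775333) had 9.02 and 11.1 RPKM in SI-ILC2s, against 7.36 and 8.85 RPKM in WAT-ILC2s. Its libraries did not overlap between tissues, yet the change of 0.28 had a 95% interval of -0.12 to 0.68 and missed the threshold (limma adjusted p = 0.205). Exons of Nr1d1 share 263 bases, 8.55% of its exon length, with Thra on the opposite strand. Thra, a thyroid hormone receptor gene, had 1.33 and 2.02 RPKM in SI-ILC2s, against 2.09 and 3.51 RPKM in WAT-ILC2s. Whether the counting used strand is not stated in the sources used here. Rora, which encodes an activator of the same elements, had 89.98 and 97.98 RPKM in SI-ILC2s, against 45.3 and 54.5 RPKM in WAT-ILC2s (log2 change 0.90, limma adjusted p = 0.0055). Rora RPKM over the summed RPKM of both REV-ERB genes was 3.22 and 2.67 in SI-ILC2s, against 2.48 and 2.23 in WAT-ILC2s, a ratio that did not overlap between the tissues.

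The PAR bZIP activators did not move together. Hlf (chromosome 11, 90336536 to 90390895) had 24.1 and 28.8 RPKM in SI-ILC2s, against 6.53 and 7.44 RPKM in WAT-ILC2s. Each SI-ILC2 library was over 3 times as high as either WAT-ILC2 library, and the change was 1.78 ± 0.15 (SE, limma adjusted p = 5.9e-04). By size of change Hlf stood at percentile 96.97 of all tested genes. Dbp (chromosome 7, 45705088 to 45710203), in many tissues among the genes with the strongest daily rhythm, had 2.16 and 2.30 RPKM in SI-ILC2s, against 3.37 and 3.76 RPKM in WAT-ILC2s. It was lower in both SI-ILC2 libraries, with a change of -0.50 ± 0.14 (SE, limma adjusted p = 0.028). Tef (chromosome 15, 81802421 to 81826863) had 0.727 and 1.16 RPKM in SI-ILC2s, against 1.92 and 1.95 RPKM in WAT-ILC2s. It was lower in both SI-ILC2 libraries, which differed from each other more than those of WAT-ILC2s, with a change of -0.60 ± 0.15 (SE, limma adjusted p = 0.018). Without SI-ILC2 replicate 1 the calls of both were lost, at adjusted p-values of 0.145 for Dbp and 0.111 for Tef. That of Dbp was also lost without SI-ILC2 replicate 2 (0.095) or WAT-ILC2 replicate 2 (0.091), and the ranges over 14 alternatives were 0.0012 to 0.145 for Dbp and 1.3e-04 to 0.111 for Tef. With no filter both calls were lost (0.057 for Dbp and 0.0504 for Tef), and that of Dbp was lost with median-of-ratios scaling (0.073) and quantile normalization (0.077).

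Hlf made up 89.3% of the summed PAR bZIP RPKM in both SI-ILC2 libraries, against 55.2% and 56.6% in the WAT-ILC2 libraries. The sum itself was 27.01 and 32.3 RPKM in SI-ILC2s, against 11.8 and 13.1 RPKM in WAT-ILC2s. Hlf RPKM over Dbp RPKM was 11.2 and 12.5 in SI-ILC2s, against 1.94 and 1.98 in WAT-ILC2s. The values of each tissue lay close together and far from those of the other. Exons of Dbp share 539 bases, 18% of its exon length, with Sphk2 on the opposite strand. Sphk2, a sphingosine kinase gene, had 1.44 and 1.80 RPKM in SI-ILC2s, against 5.18 and 6.33 RPKM in WAT-ILC2s, the same direction as Dbp, and its part in the Dbp values was not tested.

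Nfil3 (chromosome 13, 52967209 to 52981073) had 116 and 110.02 RPKM in SI-ILC2s, against 42.3 and 40.1 RPKM in WAT-ILC2s. Libraries of a tissue differed little beside the gap between tissues, and the change was 1.44 ± 0.14 (SE, limma adjusted p = 8.1e-04). Nfil3 was the most abundant of the 10 genes in every library and held 61.3% and 55.6% of their summed RPKM in SI-ILC2s, against 48.7% and 43.02% in WAT-ILC2s. Its RPKM over the sum of Dbp, Tef and Hlf was 4.31 and 3.41 in SI-ILC2s, against 3.57 and 3.05 in WAT-ILC2s. The tissues overlapped in this ratio of D-box repressor to activator transcripts, although Nfil3 and the activator sum were each higher in SI-ILC2s. Hlf and Nfil3 kept their calls in all 14 alternatives, with changes of 1.64 to 1.96 and 1.29 to 1.63.

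**Figure D2:**
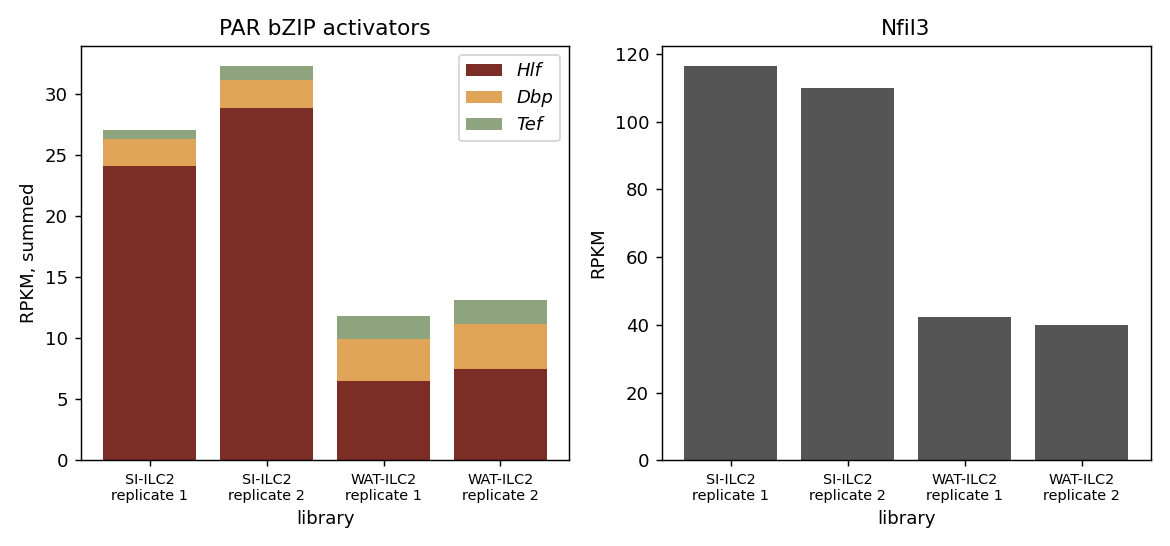
Left, RPKM of Hlf, Dbp and Tef stacked for each of the 4 libraries; right, RPKM of Nfil3 in the same libraries. Hlf forms 89.3% of the stack in both SI-ILC2 libraries, against 55.2% and 56.6% in the WAT-ILC2 libraries, and Nfil3 stands at 116 and 110.02 RPKM in SI-ILC2s, against 42.3 and 40.1 RPKM in WAT-ILC2s.

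The order of mean levels per length differed between the tissues mainly by Hlf. In SI-ILC2s the order was Nfil3, Hlf, Nr1d2, Arntl, Nr1d1, Per1, Dbp, Tef, Clock and Per2, and in WAT-ILC2s it was Nfil3, Nr1d2, Nr1d1, Arntl, Hlf, Per1, Dbp, Tef, Clock and Per2. Hlf thus ranked 2 in SI-ILC2s and 5 in WAT-ILC2s. Neighbours whose library ranges overlapped in SI-ILC2s were Hlf and Nr1d2, Arntl and Nr1d1, Tef and Clock, and Clock and Per2. In WAT-ILC2s they were Arntl and Hlf, and Hlf and Per1. From Per1 down, both tissues had the same order.

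Within each tissue, the replicate 2 library had the higher value for 8 of the 10 genes in both tissues. Among the 9 tested genes these were 7, against 39.9% of all tested genes. The ratio of replicate 2 to replicate 1 was 1.66 in SI-ILC2s and 1.62 in WAT-ILC2s for Per2. It was 1.35 in SI-ILC2s and 1.42 in WAT-ILC2s for Nr1d2, 1.23 in SI-ILC2s and 1.20 in WAT-ILC2s for Nr1d1, and 1.16 in SI-ILC2s and 1.22 in WAT-ILC2s for Per1, so these 4 genes all had the higher value in the same-numbered library of each tissue. So did Clock (1.22 in SI-ILC2s and 1.06 in WAT-ILC2s), Dbp (1.06 and 1.11), Tef (1.59 and 1.02) and Hlf (1.20 and 1.14). Arntl and Nfil3 were the exceptions, with ratios of 0.881 in SI-ILC2s and 0.948 in WAT-ILC2s for Arntl, and of 0.944 in SI-ILC2s and 0.949 in WAT-ILC2s for Nfil3. Of 11 tested clock genes outside the 10, 6 were higher in replicate 2 of both tissues and 3 were lower in both. Over all 8230 tested genes, the differences between replicates 2 and 1 of the tissues correlated at 0.572. With 2 libraries a tissue these are values and not a test, and the labels do not say what a replicate number stands for.

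**Figure D3:**
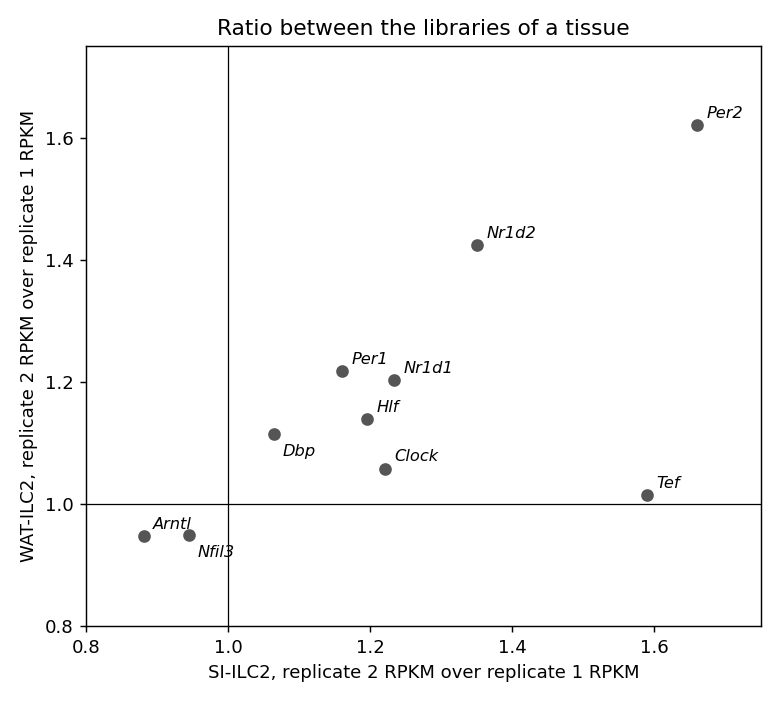
RPKM of replicate 2 over RPKM of replicate 1 within SI-ILC2s (horizontal) and within WAT-ILC2s (vertical), 1 point per gene, with lines at a ratio of 1. Per2 and Nr1d2 lie far above 1 on both axes, Arntl and Nfil3 lie below 1 on both, and Tef is at 1.59 in SI-ILC2s and 1.02 in WAT-ILC2s.

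Among 17 other clock genes, 11 passed the filter, of which 4 were higher in SI-ILC2s, 2 were lower and 5 did not pass the test, near the 47.5% called among all tested genes (17.9% higher and 29.6% lower). Their median log2 change was 0.11, against -0.15 for all tested genes. Besides Rora, the higher genes were Bhlhe40, Fbxl21 and Fbxw11. Bhlhe40, which encodes the E-box repressor DEC1, had 340 and 317 RPKM in SI-ILC2s, against 115 and 109 RPKM in WAT-ILC2s, above all of the 10 genes in each library. Its change was 1.54 (limma adjusted p = 9.4e-04), and its RPKM over that of Arntl was 31.3 and 33.1 in SI-ILC2s and 15.8 in both WAT-ILC2 libraries.

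Fbxl21 and Fbxw11 encode F-box proteins that mark clock repressors for degradation, CRY proteins for Fbxl21 and PER proteins for Fbxw11. Fbxl21 had 22.8 and 17.8 RPKM in SI-ILC2s, against 4.85 and 3.79 RPKM in WAT-ILC2s, a change of 2.00 ± 0.18 (SE, limma adjusted p = 6.6e-04). Fbxw11 had 5.37 and 7.03 RPKM in SI-ILC2s, against 1.97 and 2.54 RPKM in WAT-ILC2s (change 1.14, limma adjusted p = 0.0037). Its paralog Btrc had 1.54 and 1.44 RPKM in SI-ILC2s, against 1.45 and 1.58 RPKM in WAT-ILC2s, which overlapped.

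Lower in SI-ILC2s were Csnk1e and Timeless. Csnk1e, a kinase that phosphorylates PER proteins, had 0.984 and 1.28 RPKM in SI-ILC2s, against 2.18 and 2.88 RPKM in WAT-ILC2s (change -0.72, limma adjusted p = 0.012). The related kinase gene Csnk1d was more abundant, at 24.1 and 25.6 RPKM in SI-ILC2s, against 21.9 and 24.002 RPKM in WAT-ILC2s, with no call (limma adjusted p = 0.535). Timeless, best known in mammals for its role at replication forks, had 0.296 and 0.550 RPKM in SI-ILC2s, against 1.05 and 1.12 RPKM in WAT-ILC2s (change -0.56, limma adjusted p = 0.014). Without SI-ILC2 replicate 1 neither passed, at adjusted p-values of 0.062 and 0.072, which were the highest over 14 alternatives (lowest 1.0e-05 and 1.3e-04). The Timeless call was also lost with no filter on low values (0.053) and with quantile normalization (0.058). Timeless met the filter only through the WAT-ILC2 libraries, so as a tested gene it could only be lower in SI-ILC2s. The others without a call were Cry1, Ciart and Usp2. Cry1, a repressor of the ARNTL dimer, had 1.18 and 1.74 RPKM in SI-ILC2s, against 1.51 and 2.39 RPKM in WAT-ILC2s, and was called lower in 1 of 14 alternatives, that without WAT-ILC2 replicate 1 (limma adjusted p = 0.0492). Ciart, another repressor of that dimer, had 2.95 and 2.26 RPKM in SI-ILC2s, against 1.46 and 1.83 RPKM in WAT-ILC2s (limma adjusted p = 0.062). It was called higher with median-of-ratios scaling (0.0298), quantile normalization (0.0278) and without WAT-ILC2 replicate 2 (0.0295).

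**Figure D4:**
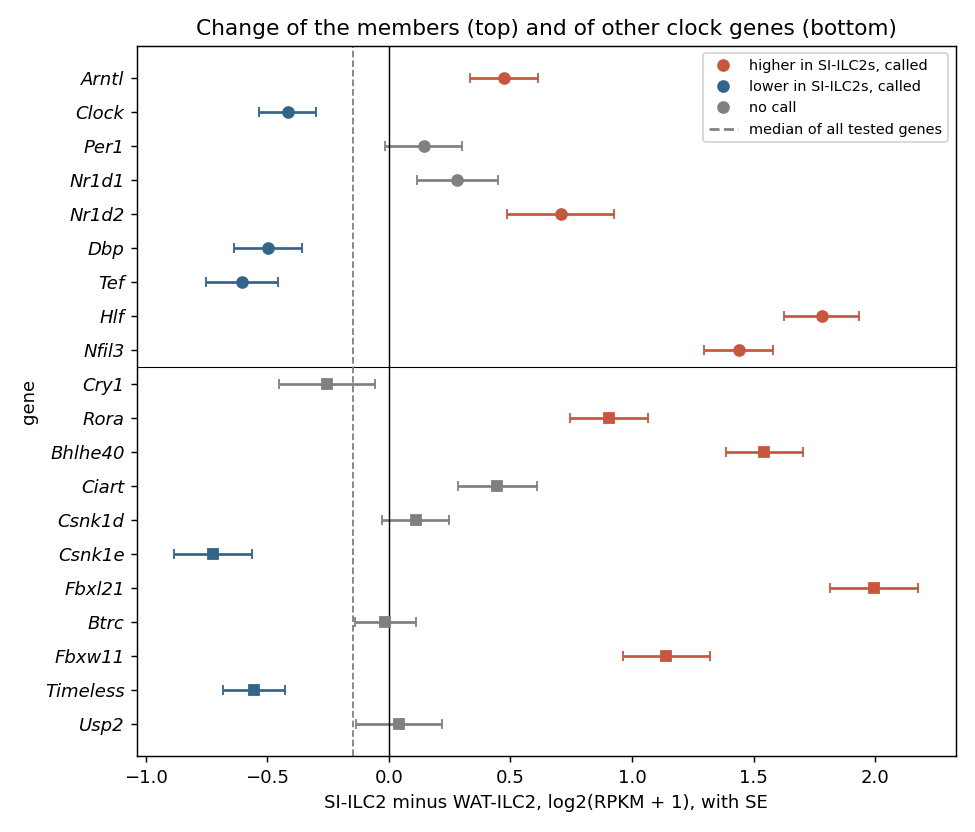
Log2 change with SE, as SI-ILC2 minus WAT-ILC2 values of log2(RPKM + 1), of the 9 tested genes (top) and the 11 tested other clock genes (bottom). Colour marks genes called higher or lower in SI-ILC2s, grey marks no call, and the dashed line is the median of all tested genes at -0.15; Fbxl21 (2.00), Hlf (1.78), Bhlhe40 (1.54) and Nfil3 (1.44) lie farthest to the right.

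Genes linked to clock output or to glucocorticoids, a daily signal that induces Per1, formed a list of 13, of which 10 were tested, 2 were higher in SI-ILC2s, 3 were lower and 5 did not pass, close to the 47.5% called among all tested genes. The median log2 change of the 10 was -0.02. Por, which encodes the electron donor of cytochrome P450 enzymes and is a PAR bZIP target in mouse liver, had 27.7 and 41.4 RPKM in SI-ILC2s, against 16.3 and 22.3 RPKM in WAT-ILC2s (change 0.80, limma adjusted p = 0.033). Nampt, the rate-limiting enzyme of NAD salvage and an E-box target, had 11.04 and 9.70 RPKM in SI-ILC2s, against 7.84 and 6.97 RPKM in WAT-ILC2s (change 0.43, limma adjusted p = 0.049). The call of Nampt was lost in 7 of 14 alternatives, among them those without SI-ILC2 replicate 1, SI-ILC2 replicate 2 or WAT-ILC2 replicate 2 (adjusted p = 0.277, 0.109 and 0.167). That of Por was lost in 3, among them that without SI-ILC2 replicate 2 (adjusted p = 0.158). Ranges over the 14 were 4.2e-04 to 0.277 for Nampt and 4.9e-10 to 0.158 for Por.

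Of the glucocorticoid-induced genes, Sgk1, a kinase gene, had 22.9 and 18.3 RPKM in SI-ILC2s, against 78.4 and 67.5 RPKM in WAT-ILC2s (change -1.78, limma adjusted p = 7.4e-04). Tsc22d3, which encodes GILZ, had 64.2 and 53.7 RPKM in SI-ILC2s, against 100.7 and 95.8 RPKM in WAT-ILC2s (change -0.73, limma adjusted p = 0.011). Its call was lost without SI-ILC2 replicate 2, at an adjusted p of 0.116, within a range of 5.3e-09 to 0.116 over 14 alternatives. Fkbp5 and Klf9, also induced by glucocorticoids, had overlapping tissues and did not pass, with changes of -0.17 and 0.13. Nr3c1, the glucocorticoid receptor gene, had 36.4 and 43.2 RPKM in SI-ILC2s, against 31.8 and 36.6 RPKM in WAT-ILC2s, which overlapped (limma adjusted p = 0.307). Tspo, a mitochondrial membrane protein gene, had 7.61 and 7.41 RPKM in SI-ILC2s, against 20.3 and 18.6 RPKM in WAT-ILC2s (change -1.27, limma adjusted p = 0.0011).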

How the data were processed

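RNA from sorted ILC2s was sequenced as 4 libraries. The authors deposited RPKM values, scaled to gene length and library size, with a column per library and no pooling. The submitters' processing notes name STAR 2.6.0, featureCounts 1.6.0 from Subread and the GRCm38 (mm10) build. Annotation, strandedness and filtering are not stated there. A count test was not applied, because RPKM values are no counts. Depth was estimated as the number of reads at which low values of single-exon genes, multiplied by GENCODE M21 exon length, best fell on whole reads within 0.1 (83.01% to 84.7% of values, against 20% by chance). Read numbers of single genes are approximate for the same reason.

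Values were compared as log2(RPKM + 1) with limma 3.58.1 in R 4.3.3 (variance trend, no covariate, 6.4 total degrees of freedom), SI-ILC2 minus WAT-ILC2, over 8230 genes with at least 1 RPKM in at least 2 libraries. The step was tested on simulated data. In genes with at least 200 reads, the squared difference between libraries of a tissue had a median of 7.35 times (SI-ILC2s) and 9.23 times (WAT-ILC2s) the counting noise of read pairs, so none was treated as a copy. The 10 genes and all lists were chosen with earlier results of these data known, and a few genes of the lists are not reported here. All 10 genes and all genes of the other lists that passed the filter were eligible for naming, and older symbols were used for 2 cell markers. Coordinates and exon overlaps are GENCODE M21 (GRCm38), and promoters are RefSeq (GRCm38.p6). Alternatives changed the pseudocount, filter, scaling, variance prior, libraries and covariate. Python 3.11.15 was used with pandas 2.3.3 and matplotlib 3.10.9.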

Additional observations from a re-analysis of the deposited data

How the results depend on the processing

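None of the 9 tested clock genes changed direction in any of the 14 alternatives, and 102 of their 126 recomputed calls stayed as reported (23 were lost, 1 was gained). For most alternatives the direction could not have turned. Settings of the filter, variance prior and block left each change as it was. For all tested genes but Per1, the tissues did not overlap, so a left-out library or another pseudocount could not turn the direction. Only the scalings could have done so for these genes. Of the 10 genes, 2 were called higher and 0 lower by limma with every gene above 0 tested (3 lower at an unadjusted p under 0.05), 2 higher with equal column sums, and 1 lower with median-of-ratios scaling and with quantile normalization. Leaving out 1 library gave 2 to 3 higher and 0 to 3 lower. Other clock genes called lower numbered 1 without the filter and with quantile normalization, and 0 to 3 without 1 library (2 at an unadjusted p under 0.05 where 0 were called). Output genes called higher numbered 1 with a pseudocount of 0.1 and with a filter of 0.5 RPKM, 0 without the filter and with equal column sums (2 and 1 at an unadjusted p under 0.05), and 0 to 2 without 1 library (0 at an unadjusted p under 0.05 where 0 were called). In these cases the cause was not tested.

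Direction turned only for genes without a call. Btrc and Klf10 were at 0.0998 and 0.012 with median-of-ratios scaling, Btrc at 0.15 with quantile normalization, and Csnk1d and Usp2 at -0.038 and -0.095 with equal column sums. Without 1 library Usp2 ranged from -0.16 to 0.24, Btrc from -0.053 to 0.022 and Klf9 from -0.065 to 0.329. The median change of all tested genes moved from -0.15 to 0.0015, -0.02 and -0.26 under the 3 scalings, and 1956 and 1817, 1772 and 1886, and 1125 and 2891 genes were called higher and lower, against 1470 and 2436. With no filter on low values, 1300 and 2095 of 21851 genes were called higher and lower.

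With the replicate number as a block, 5 of the 10 genes were called higher (Nr1d1 added, adjusted p = 0.018) and 3 lower, and 2271 and 3430 of all tested genes. Of the other lists, Ciart (adjusted p = 0.0052) and Nr3c1 (0.036) were also called higher. The differences between replicates 2 and 1 of the tissues correlated at 0.572 over 8230 genes, which are not independent, but with 2 numbers and no label on what they mean this does not show that the libraries were paired. Among the 10 genes, depth limits Per2 most, with about 58 reads in 1 WAT-ILC2 library.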

Other observations

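The clock genes below the filter of 1 RPKM in at least 2 libraries included the partners and paralogs of several genes above. Cry2, a repressor of the ARNTL dimer, had 0.823 and 1.09 RPKM in SI-ILC2s, against 0.415 and 0.528 RPKM in WAT-ILC2s. It was called higher in SI-ILC2s by limma with a filter of 0.5 RPKM (adjusted p = 0.036) but not with no filter (adjusted p = 0.118). Npas2, a paralog of Clock, had 0.346 and 0.443 RPKM in SI-ILC2s, against 0.576 and 0.575 RPKM in WAT-ILC2s, the same direction as Clock. Per3 had 0.385 and 0.423 RPKM in SI-ILC2s, against 0.444 and 0.432 RPKM in WAT-ILC2s. Bhlhe41, the paralog of Bhlhe40, was below 0.1 RPKM in every library, at 0.0469 and 0.087 RPKM in SI-ILC2s, against 0.0686 and 0.0619 RPKM in WAT-ILC2s. Arntl2, the paralog of Arntl, was at 0.184 and 0.0827 RPKM in SI-ILC2s, against 0.0087 and 0.129 RPKM in WAT-ILC2s, and Rorb at 0.0616 and 0.0801 RPKM in SI-ILC2s, against 0.061 and 0.0832 RPKM in WAT-ILC2s.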
